A study of Homo sapiens with 8 samples.

Results

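The genes of the proteasome were followed in FT293 cells that expressed GFP or the GFP-tagged RNA-binding proteins HuR, TIA1 or TIAR. Members were the array probes that are not controls and whose gene symbol is PSM followed by a letter from A to G and a number. The rule found 48 genes among 36337 gene names, measured by 72 of 50599 probes. It takes in the α and β subunits of the core particle, its immune forms, the base and lid of the regulatory particle, the activators, an inhibitor and the chaperones that assemble them. It leaves out proteasome genes with other symbols, such as POMP, ADRM1 and SHFM1, which are given apart.

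FT293 is a derivative of the human embryonic kidney line HEK293 in which a tetracycline-regulated transgene sits at a single recombination site. All lines received tetracycline, the GFP control line included, so they shared the drug and the GFP tag and differed in the protein that GFP was fused to. RNA was taken on the third day as 2 independent biological replicates per line and hybridised to 8 one-colour arrays on 1 slide. Cells without a transgene or without tetracycline were not analysed here.

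The proteasome degrades proteins that carry ubiquitin chains. Its core is a barrel of stacked α and β rings with the proteolytic sites on the inside, and the regulatory particle on its end recognises, deubiquitinates and unfolds the substrate. Interferon-γ induces alternative catalytic subunits and an activator that form the immunoproteasome, best known for producing peptides for antigen presentation. Core and regulatory genes are known to be induced together by the transcription factor NFE2L1, which binds antioxidant response elements.

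A signal is given here as the log2 of the scanner software's processed intensity minus the 75th percentile of that quantity on the same array, so 0 is the 75th percentile and 1 unit is a factor of 2. Genes with several probes are given by the probe with the highest mean signal. To be tested, a probe had to be flagged well above background on each array of one or the other line. The test was limma on their 4 arrays, and a gene was called at a Benjamini-Hochberg adjusted p under 0.05. On 7 arrays between 53.3% and 58.6% of all probes were well above background, against 86.1% on GFP 1, whose median local background intensity was 82 where the others had 36 to 41.5. The TIAL1 probe, for the gene of TIAR, was higher in TIAR- than HuR-expressing cells by a log2 fold change of 2.44, whereas the TIA1 probe was lower in TIA1- than in HuR-expressing cells by -0.98 and the ELAVL1 probe, for HuR, was not called. Whether the probes of TIA1 and ELAVL1 lie within the transgenes is not given in the sources used here, so these lines are named as labelled. The epithelial keratins KRT8 and KRT18 and the intermediate filament VIM were well above background on all 8 arrays, and the leukocyte probe of CD74 only on GFP 1. The leukocyte gene PTPRC had a signal of 1.12 on GFP 1 and of -4.66 to -3.94 on the other arrays.

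The promoter sequences of 42 of the 48 genes were found in the RefSeq table (GRCh38.p14), each with 250 bases before and 50 after the gene's start. The core of the antioxidant response element, TGACNNNGC on either strand, was in 13 of the 42 (31%) and in 13.6% of 27305 promoters. GAAANNGAA on either strand, the repeat found in interferon-stimulated response elements, was in 7 of the 42 (16.7%) and in 8.29% of all. Windows of 30 bases that end before the start are shown for members called in any comparison and for PSME2, the partner of PSME1, since these are the genes whose values carry the results. The matched letters are in capitals, each window runs 5′ to 3′ on the gene's strand, and in PSME4 the match is on the opposite strand.

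PSMB3, antioxidant response element letters, chr17:38752627-38752656, + strand: gcctccgtttTGACTTTGCaaccaaactac
PSMD12, antioxidant response element letters, chr17:67366723-67366752, - strand: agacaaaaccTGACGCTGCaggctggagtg
PSME1, antioxidant response element letters, chr14:24136098-24136127, + strand: atggcagggcTGACCCCGCctcctccatcc
PSME2, antioxidant response element letters, chr14:24146766-24146795, - strand: ccctggactgTGACCCAGCcagcaccgcct
PSME4, antioxidant response element letters, chr2:53971008-53971037, - strand: cccggcggctGCAGCGTCAccagcagagcc
PSMB10, interferon repeat letters, chr16:67936852-67936881, - strand: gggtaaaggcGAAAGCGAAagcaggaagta
PSME2, interferon repeat letters, chr14:24146619-24146648, - strand: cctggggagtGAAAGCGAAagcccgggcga
PSMG4, interferon repeat letters, chr6:3258904-3258933, + strand: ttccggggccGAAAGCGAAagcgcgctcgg

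The interferon repeats of PSMB10, PSME2 and PSMG4 hold the same 9 letters, and they start 21, 28 and 33 bases before the gene. PSME1 also has a match to the interferon repeat, on the opposite strand 6 bases after the start, where no window is shown. PSMB3, PSME1 and PSME4 carry the antioxidant response element letters 104, 86 and 34 bases before the start. A match is a description of these letters and was not tested as a binding site.

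Most members were well expressed, and their levels changed little between lines. The chosen probes of 45 of the 48 genes were well above background on all 8 arrays, and 41 of them lay in the brightest 25% of such probes. The testis α subunit PSMA8, the thymus catalytic subunit PSMB11 and the immune catalytic subunit PSMB8 were not tested. The difference between the highest and the lowest line mean had a median of 0.47 over the 45 members, of 0.67 over all 25038 probes well above background on all 8 arrays, and of 0.53 over the brightest 25% of those. The highest mean was that of HuR-expressing cells for 23 members and of GFP-expressing cells for 13, and the lowest was that of TIA1 for 14, GFP for 13, TIAR for 10 and HuR for 8. Duplicate arrays differed by a median SD over the members of 0.04 in HuR, 0.07 in TIA1 and 0.06 in TIAR, but of 0.25 in GFP. No member reached a 2-fold change together with an adjusted p under 0.05 in any of the 6 comparisons.

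TIA1- versus HuR-expressing cells showed lower levels of several core and regulatory genes, and the largest differences were close to 2-fold. PSME3, a nuclear activator of the core, PSMB5, the catalytic subunit with chymotrypsin-like activity, and PSMD14, the deubiquitinase of the lid, were each lower by a log2 fold change between -0.93 and -0.89, although PSMD14 was at -0.54 after normexp background correction and at -0.49 in the authors' normalized values, called in both. PSMB3, a β subunit without a proteolytic site, PSMD11, a lid subunit, and PSMF1, an inhibitor of the core, were higher. Of 45 members tested, 3 were higher (6.67%) and 12 lower (26.7%), whereas of all 28745 probes tested 24.2% were called higher and 17.3% lower. The median log2 fold change was -0.18 over the members and 0.08 over all probes. None was called with a change of at least 2-fold, beside 13.4% of all probes.

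TIAR- versus HuR-expressing cells had as many members higher as lower. PSMC6, an ATPase of the base, PSME3, PSMG4, a chaperone of the core, PSMD14 and the α subunit PSMA5 were lower. PSMD11, PSMF1 and PSMB3 were higher, and so were PSME1, an immunoproteasome activator, and PSMB10, an immune catalytic subunit. In all 5 members were called higher and 5 lower (11.1% each) of 45 tested, beside 18.1% higher and 12.6% lower of 29102 probes. Members had a median log2 fold change of -0.13 and all probes one of 0.05, but in the authors' normalized values both turned sign, to 0.085 and -0.05. No member was called at 2-fold or more, against 10.1% of all probes.

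The HuR arrays serve in both of these comparisons, so the values stand side by side without supporting each other. With HuR replicate 1 or 2 left out, HuR had 1 array. All calls of members were then lost in both comparisons, and calls over all probes became fewer. Whether the members lost more calls than other probes was not tested. In these fits the median over the members was -0.16 or -0.22 for TIA1 and -0.15 or -0.12 for TIAR. Arrays of TIA1 and HuR lay in different rows of the slide, so line and row cannot be told apart there, while TIAR and HuR shared a row. The same holds for TIAR versus TIA1, whose arrays also lay in different rows. In such bulk RNA, fewer cells with a transcript and less transcript per cell cannot be told apart.

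**Figure D1:**
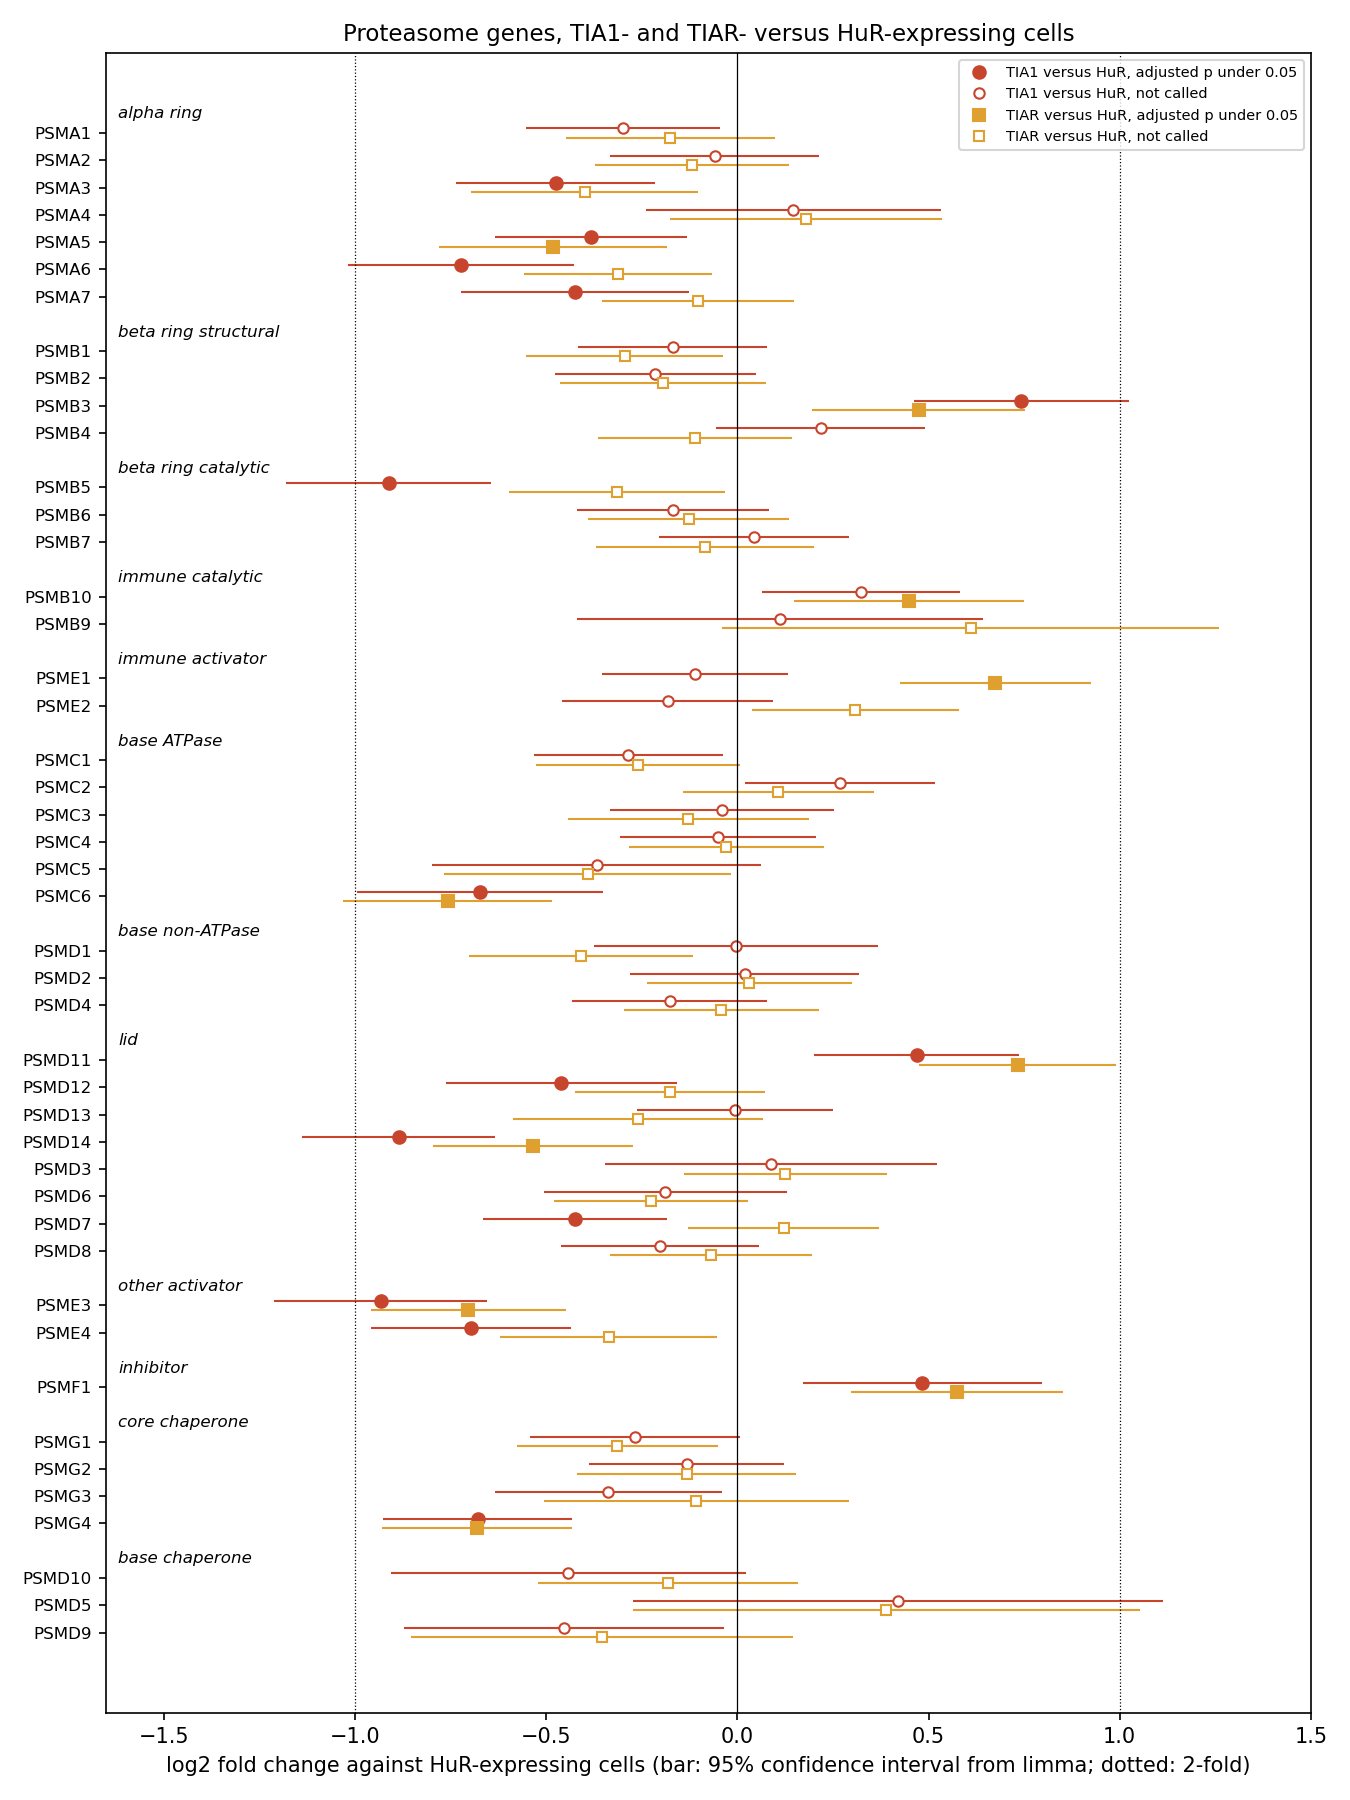
Log2 fold change of the 45 tested proteasome genes in TIA1- (circles) and TIAR-expressing cells (squares) against HuR-expressing cells, grouped by role, with the 95% confidence interval from limma. Filled symbols mark an adjusted p under 0.05 and dotted lines a 2-fold change. All points lie between the dotted lines, with PSME3, PSMB5 and PSMD14 farthest to the left.

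In the α rings, which gate the entry to the core, 4 of 7 genes were lower in TIA1- than in HuR-expressing cells, beside 17.3% of all probes. PSMA6 had signals of 5.58 and 5.58 on the HuR arrays, 4.76 and 4.95 on TIA1, 5.27 and 5.26 on TIAR and 5.17 and 5.57 on GFP. Both TIA1 arrays lay below all other arrays, and the log2 fold change against HuR was -0.72 (SE 0.11, adjusted p = 0.012 from limma). PSMA3, PSMA7 and PSMA5 followed with -0.48, -0.42 and -0.38. Under 11 other settings PSMA6 kept its call in 8, PSMA3 in 6, PSMA7 in 4 and PSMA5 in 2.

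PSMA5 was the only α gene called in TIAR- versus HuR-expressing cells, with a log2 fold change of -0.48 (SE 0.11, adjusted p = 0.038 from limma). Its signals were 5.43 and 5.42 on HuR, 5.08 and 5.00 on TIA1, 4.85 and 5.03 on TIAR and 4.86 and 5.25 on GFP. The HuR arrays were thus above the rest and the other lines overlapped. In the authors' normalized values its log2 fold change was -0.19 for TIA1 and -0.07 for TIAR. PSMA1, PSMA2 and PSMA4 had log2 fold changes of -0.30 to 0.18 in both comparisons and were not called.

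The β rings hold the proteolytic sites, and their members did not move together. PSMB5 had signals of 6.05 and 5.96 on the HuR arrays, 5.14 and 5.04 on TIA1, 5.74 and 5.63 on TIAR and 5.59 and 5.93 on GFP. The TIA1 arrays were below every other array. Against HuR this was a log2 fold change of -0.91 (SE 0.10, adjusted p = 0.0058 from limma) in TIA1-expressing cells and of -0.32 (SE 0.10, adjusted p = 0.087) in TIAR-expressing cells. The difference between TIAR and TIA1 was 0.60 (95% interval 0.28 to 0.91) and was not called, with an adjusted p of 0.074.

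The other catalytic subunits of the constitutive core were nearly level. PSMB6, with caspase-like activity, ranged from 5.37 to 5.59 on the HuR, TIA1 and TIAR arrays and was at 5.17 and 5.46 on GFP. PSMB7, with trypsin-like activity, ranged from 5.02 to 5.27 on those 6 arrays and was at 4.83 and 5.14 on GFP. Neither was called, with log2 fold changes of -0.17 and 0.04 for TIA1 and -0.13 and -0.09 for TIAR against HuR.

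PSMB3 went the other way from PSMB5. It had signals of 4.16 and 4.11 on the HuR arrays, 4.95 and 4.80 on TIA1, 4.54 and 4.67 on TIAR and 4.88 and 5.21 on GFP. The HuR arrays were the lowest of the 8, and the GFP arrays overlapped those of TIA1. The log2 fold change was 0.74 (SE 0.10, adjusted p = 0.0098 from limma) for TIA1 and 0.47 (SE 0.10, adjusted p = 0.035) for TIAR. Of the other β subunits without a proteolytic site, PSMB1, PSMB2 and PSMB4 were not called by their brightest probes.

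Of the 4 immunoproteasome genes tested, 2 were called higher in TIAR- versus HuR-expressing cells, PSME1 and PSMB10, beside 18.1% of all probes. In TIA1- versus HuR-expressing cells limma called 0 of them, with 1 at an unadjusted p under 0.05, as were 15066 of all 28745 probes. The difference between TIAR and TIA1 was called for PSME1 alone. PSME1 had signals of 0.43 and 0.40 on the TIAR arrays, -0.38 and -0.36 on TIA1, -0.28 and -0.24 on HuR and -0.81 and -0.06 on GFP. Both TIAR arrays lay above all others. The log2 fold change was 0.67 (SE 0.09, adjusted p = 0.013 from limma) against HuR. Against TIA1 it was 0.79 (SE 0.11, adjusted p = 0.044), the 1 member called in that comparison, where 1.74% of 28068 probes were called higher, 1.74% lower and 2.35% by at least 2-fold.

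PSME2 encodes the other subunit of the same activator ring, and its gene lies near PSME1 on chromosome 14. Its signals were 5.22 and 5.27 on the TIAR arrays, 4.70 and 4.80 on TIA1, 4.99 and 4.88 on HuR and 4.72 and 4.90 on GFP. As for PSME1, the TIAR arrays were the highest, yet the differences from TIA1 of 0.49 (adjusted p = 0.096) and from HuR of 0.31 (adjusted p = 0.084) did not pass limma's threshold.

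PSMB10, which takes the place of PSMB7 in the immunoproteasome, had signals of 2.41 and 2.57 on TIAR, 2.34 and 2.39 on TIA1, 2.09 and 2.00 on HuR and 2.40 and 2.73 on GFP. Only the HuR arrays stood apart, below the rest. It was higher in TIAR- than in HuR-expressing cells by a log2 fold change of 0.45 (SE 0.11, adjusted p = 0.047 from limma), while the value for TIA1, 0.32, had an adjusted p of 0.057. In the authors' normalized values the difference for TIAR was 0.695.

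PSMB9, which takes the place of PSMB6, had signals of -2.76 and -2.15 on TIAR, -3.18 and -2.72 on TIA1, -3.17 and -2.96 on HuR and -0.35 and -1.95 on GFP. Both GFP arrays were above all others, and they differed from each other by more than the other lines did. Its log2 fold change of -1.91 in HuR- versus GFP-expressing cells (95% interval -3.69 to -0.13) had an adjusted p of 0.27 from limma. PSMB8, which takes the place of PSMB5, was well above background only on GFP 1 (-3.83) and TIAR 1 (-5.31), and on the other 6 arrays, where it was not well above background, it read -7.73 to -5.72. GFP 1 is the array with the high background, and its part in the values of PSMB8 and PSMB9 was not tested.

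**Figure D2:**
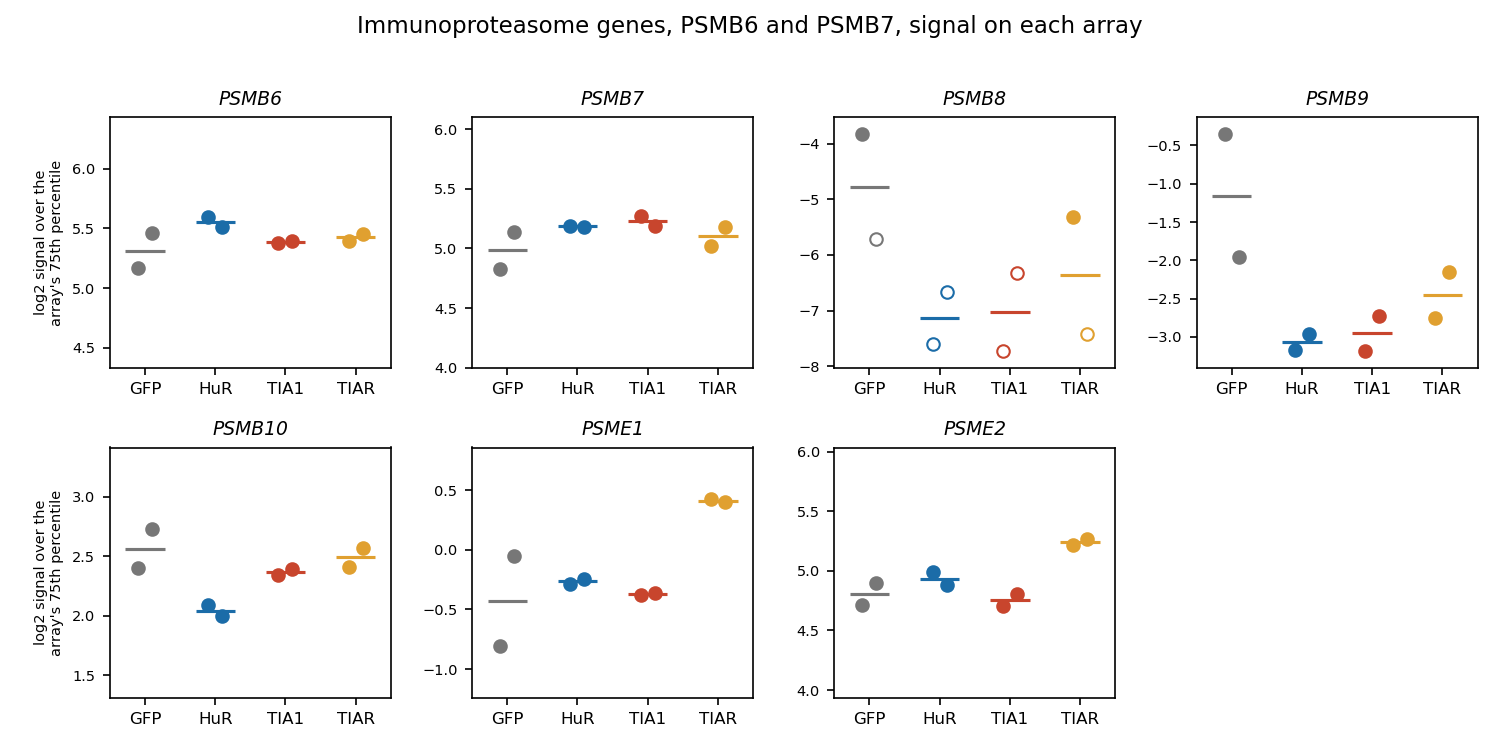
Log2 signal over the array's 75th percentile for the immunoproteasome genes and for PSMB6 and PSMB7, on each of the 8 arrays (points) with the mean of each line (bars). Open points are not well above background. The TIAR arrays are the highest for PSME1 and PSME2, and the GFP arrays for PSMB9.

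Antigen processing genes were called in both directions. On a list of 10 of them with their regulators, 9 were tested, and in each comparison with HuR 2 were higher and 1 lower (22.2% and 11.1%). These shares are near those over all probes, 24.2% and 17.3% for TIA1 and 18.1% and 12.6% for TIAR. IRF1, an interferon-responsive transcription factor, and ERAP2, a peptide-trimming aminopeptidase, were higher in both TIA1- and TIAR- than in HuR-expressing cells, by 0.90 and 0.69 and by 0.50 and 0.63 on the log2 scale. TAP2, a subunit of the peptide transporter, was lower by more than 2-fold, with signals of 1.49 and 1.54 on HuR, 0.43 and 0.56 on TIA1, 0.29 and 0.28 on TIAR and 0.89 and 0.97 on GFP. Limma gave log2 fold changes of -1.02 (adjusted p = 0.0047) for TIA1 and -1.23 (adjusted p = 0.0054) for TIAR, whereas TAP1, the other transporter subunit, was not called.

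In the base of the regulatory particle, 1 of the 6 ATPases (16.7%) was called by its brightest probe, lower in both comparisons with HuR. Of all probes, 17.3% were called lower for TIA1 and 12.6% for TIAR. PSMC6 had signals of 3.12 and 3.16 on HuR, 2.58 and 2.35 on TIA1, 2.45 and 2.32 on TIAR and 2.84 and 3.01 on GFP. The TIA1 and TIAR arrays overlapped each other and lay below those of HuR and GFP. The log2 fold change against HuR was -0.67 (SE 0.12, adjusted p = 0.017 from limma) for TIA1 and -0.76 (SE 0.10, adjusted p = 0.013) for TIAR. PSMC3 and PSMC4 stayed within -0.13 to -0.03 in both comparisons, and the base subunits PSMD1, PSMD2 and PSMD4 were not called.

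The lid had called members in both directions. PSMD14, the enzyme that removes the ubiquitin chain, had signals of 4.52 and 4.52 on HuR, 3.59 and 3.68 on TIA1, 3.94 and 4.03 on TIAR and 3.68 and 4.19 on GFP. The HuR arrays were the highest, and the GFP arrays lay on either side of the TIAR arrays. Log2 fold changes against HuR were -0.89 (SE 0.09, adjusted p = 0.0055 from limma) for TIA1 and -0.54 (SE 0.10, adjusted p = 0.023) for TIAR.

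PSMD11, which links the lid to the core, had signals of 2.85 and 2.77 on HuR, 3.33 and 3.23 on TIA1, 3.55 and 3.54 on TIAR and 3.04 and 3.43 on GFP. Here the HuR arrays were the lowest and the TIAR arrays the highest. The differences from HuR were 0.47 (SE 0.10, adjusted p = 0.025 from limma) for TIA1 and 0.73 (SE 0.09, adjusted p = 0.012) for TIAR. PSMD12 and PSMD7 were lower in TIA1- than in HuR-expressing cells, with log2 fold changes of -0.46 and -0.43, and were not called for TIAR. Their differences between TIAR and TIA1, 0.29 (adjusted p = 0.27 from limma) and 0.55 (adjusted p = 0.073), were not called either.

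Of the activators outside the immune group, PSME3 was lower in both comparisons. PSME3 had signals of 3.69 and 3.70 on HuR, 2.84 and 2.69 on TIA1, 3.03 and 2.96 on TIAR and 3.62 and 4.05 on GFP. All TIA1 and TIAR arrays lay below all HuR and GFP arrays. The log2 fold change against HuR was -0.93 (SE 0.10, adjusted p = 0.006 from limma) for TIA1 and -0.70 (SE 0.09, adjusted p = 0.013) for TIAR.

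PSMG4, one of the chaperones that build the α ring, showed the same separation of arrays. Its signals were 2.46 and 2.43 on HuR, 1.74 and 1.80 on TIA1, 1.77 and 1.77 on TIAR and 2.36 and 2.57 on GFP. Log2 fold changes against HuR were -0.68 (SE 0.09, adjusted p = 0.009 from limma) for TIA1 and -0.68 (SE 0.09, adjusted p = 0.013) for TIAR, the latter at -0.39 (adjusted p = 0.049) in the authors' normalized values. Its fellow chaperones PSMG1, PSMG2 and PSMG3 had values of -0.34 to -0.11 and were not called, nor were the base chaperones PSMD5, PSMD9 and PSMD10.

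PSMF1 had signals of 1.49 and 1.46 on HuR, 2.06 and 1.85 on TIA1, 2.11 and 1.98 on TIAR and 1.33 and 1.89 on GFP. The HuR arrays were below those of TIA1 and TIAR, and GFP overlapped HuR and TIA1. It was higher than in HuR by 0.48 (SE 0.12, adjusted p = 0.034 from limma) in TIA1 and by 0.57 (SE 0.10, adjusted p = 0.023) in TIAR.

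**Figure D3:**
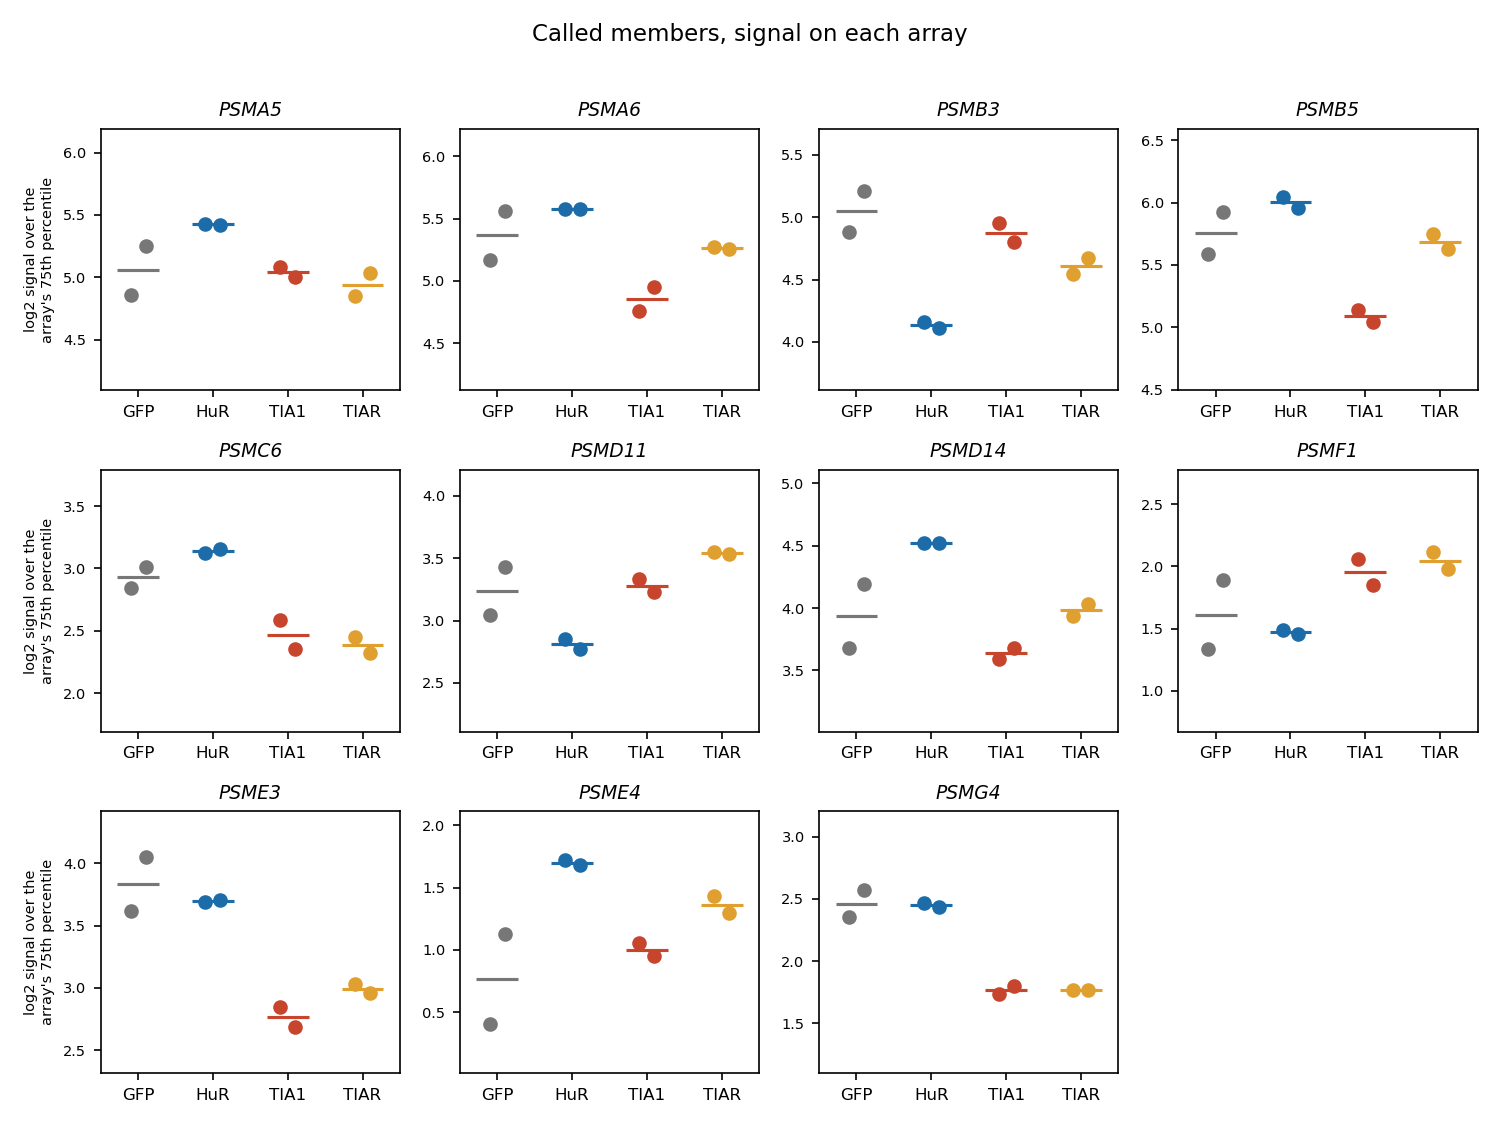
Log2 signal over the array's 75th percentile for 11 called members, on each of the 8 arrays (points) with the mean of each line (bars). The HuR duplicates nearly coincide, TIA1 and TIAR lie below HuR and GFP for PSME3, PSMC6 and PSMG4, and HuR is the lowest line for PSMB3 and PSMD11.

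Different probes of a gene did not always move together. Several probes were tested for 13 members in TIA1- versus HuR-expressing cells, and in 5 of these genes their signs differed. PSME4, a large activator with a single chain, was lower by its brightest probe (chromosome 2 from 54092559 to 54092618 on hg19, the build of the array design). That probe had signals of 1.72 and 1.68 on HuR, 1.06 and 0.95 on TIA1, 1.44 and 1.29 on TIAR and 0.40 and 1.13 on GFP. A probe at 54091225 to 54091284 read -0.94 and -0.97 on HuR, -0.02 and 0.07 on TIA1, -0.42 and -0.32 on TIAR and -0.71 and -0.37 on GFP. The former was called lower in TIA1 (log2 fold change -0.70, adjusted p = 0.0096 from limma) and the latter higher (0.98, adjusted p = 0.0046), so no direction can be given for PSME4.

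PSMC2, another ATPase of the base, was higher in TIA1- than in HuR-expressing cells by a probe at chromosome 7 from 103002811 to 103002870, where limma gave 0.78 on the log2 scale (adjusted p = 0.0091). Its brightest probe, at 103007997 to 103008056, had a value of 0.27 and was not called. By its dimmer probe PSMC1, also an ATPase of the base, read 2.97 and 2.95 on HuR and 2.58 and 2.46 on TIA1. On TIAR that probe read 2.73 and 2.59, and on GFP 2.72 and 2.96. The brightest probe of PSMC1 was not called. PSMB1, a β subunit without a proteolytic site, was lower by its dimmer probe, by -0.43 for TIA1 and -0.75 for TIAR, but by -0.17 and -0.30 for the brightest, which was not called. PSMG4 had a second tested probe with values of 0.29 and 0.43, not called. Both probes of PSMD14 were called lower in both comparisons, and all 4 of PSMF1 had values above 0, of which 2 were called for TIA1 and 3 for TIAR. Without a genome of the design's build, probes were not assigned to exons or untranslated regions.

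**Figure D4:**
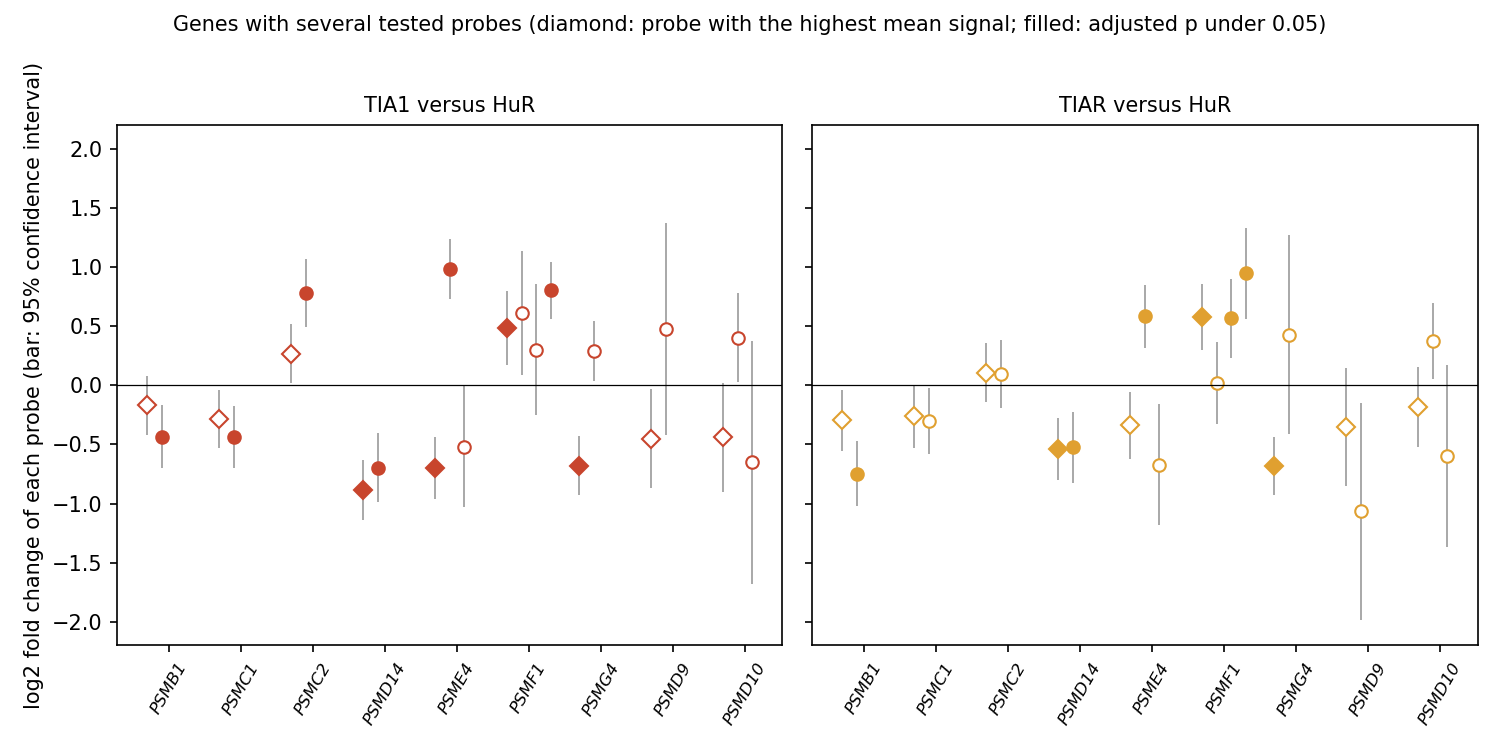
Log2 fold change against HuR of each tested probe for 9 members with several probes, in TIA1- (left) and TIAR-expressing cells (right), with 95% confidence intervals. Diamonds are the probes with the highest mean signal and filled symbols have an adjusted p under 0.05. PSME4 has called probes on both sides of 0 for TIA1.

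Comparisons with GFP gave no call. In TIA1-, TIAR- and HuR- versus GFP-expressing cells 0 of 45 members passed limma's adjusted threshold, as did 0% of 28055, 28621 and 28882 probes. At an unadjusted p under 0.05 there were 7, 3 and 3 members, beside 6080, 4695 and 4979 of these probes. With all 8 arrays in one fit 7, 3 and 1 members were called, beside 18.9%, 11.7% and 6.8% of all probes. The smallest p in TIA1 against GFP was that of PSME3, with a log2 fold change of -1.07 (95% interval -1.74 to -0.40, adjusted p = 0.14). In HuR against GFP it was that of PSMB3, with -0.92 (95% interval -1.48 to -0.36, adjusted p = 0.2). The GFP duplicates differed by more than those of the other lines.

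Genes that work with the proteasome were followed on a list of 33, of which 31 were found on the array by name and 30 were tested. In TIA1- versus HuR-expressing cells 6 were higher and 9 lower (20% and 30%), and in TIAR- versus HuR-expressing cells 2 were higher and 5 lower (6.67% and 16.7%). All calls among the 6 tested shuttle factors and segregases, which hand ubiquitinated proteins to the proteasome, were lower, 5 of them for TIA1 and 3 for TIAR. Of all probes, 24.2% were higher and 17.3% lower for TIA1, and 18.1% and 12.6% for TIAR.

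The factors that control proteasome transcription did not share a direction. NFE2L1 had signals of 2.91 and 2.95 on HuR, 2.78 and 2.73 on TIA1, 2.92 and 2.83 on TIAR and 1.91 and 2.93 on GFP, and was not called. NFE2L2, its paralogue, was not well above background on any array. NGLY1, the glycanase that processes NFE2L1, fell from 3.17 and 3.15 on HuR to 2.09 and 2.00 on TIA1, with 2.78 and 2.62 on TIAR and 2.60 and 3.15 on GFP. Limma gave -1.11 (adjusted p = 0.0037) for TIA1 and -0.46 (adjusted p = 0.041) for TIAR on the log2 scale.

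MAFF, a small partner of the NFE2L factors, had signals of -2.84 and -3.01 on HuR, -1.74 and -1.91 on TIA1, -1.68 and -1.77 on TIAR and -2.14 and -2.90 on GFP. By limma it was higher by 1.10 (adjusted p = 0.0057) for TIA1 and by 1.20 (adjusted p = 0.0071) for TIAR, both on the log2 scale. POMP, which matures the core, had signals of -0.49 and -0.34 on HuR, 0.09 and 0.13 on TIA1, 0.07 and -0.08 on TIAR and -0.57 and -0.34 on GFP. It was higher for TIA1 by 0.52 (adjusted p = 0.022), while 0.41 for TIAR did not pass (adjusted p = 0.064).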

How the data were processed

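RNA of the 4 lines was measured on 8 one-colour Agilent arrays, 2 independent replicates per line, per the labels. For the TIA1 replicate 2 array, the source field reads GFP-TIA2 while title, description and genotype read GFP-TIA1, and it was taken as TIA1. The files the authors deposited for each array come from the scanner's extraction software. Per the file headers their processed signal is a spot's intensity with background subtracted and spatial trends removed, and it was deposited without scaling between arrays. A deposited matrix gives the authors' normalized log2 values. Its sorted values differed by a median of at most 0.04 between GFP, HuR and TIA1 arrays, by 0 between the TIAR arrays, and by 0.09 to 0.11 between TIAR arrays and the rest. The normalization is not named in the paper's methods, and limma is named for the tests in the submitters' processing notes.

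Here the log2 processed signal minus the array's 75th percentile was used, without outlier spots and with the spots of a probe averaged. A probe counts as well above background where at least 0.5 of its spots are flagged so. Each comparison was fitted with limma 3.58.1 (lmFit, eBayes) in R 4.3.3 on its 4 arrays, with Benjamini-Hochberg adjustment over all probes tested. Tables and plots were made with the packages data.table (version 1.17.8), pandas (version 2.3.3) and matplotlib (version 3.10.9). The fit was also run on simulated data with independent noise for each probe, which cannot show effects shared by the probes of an array. Promoters were matched by symbol and searched on both strands. The number of arrays limits the precision.

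Members, lists and the rule for named genes were chosen with earlier results of these data known. Genes named with a value on every array are the immune subunits and their counterparts, the 5 largest calls in each direction of each comparison, partners called at 2-fold or more, and NFE2L1, NFE2L2 and POMP. The second probes of PSME4, PSMC2 and PSMC1 were added with their values in view. Settings tried besides were normexp correction (offset 50), quantile normalization, the authors' values, other filters on dim probes, all 8 arrays in one fit, a replicate block, leaving out each array and calling a gene by any probe. Replicate numbers were not taken as pairs, since the correlation of same-numbered deviations lay between -0.09 and 0.18 over the line pairs. Some genes of these lists are not reported here.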

Additional observations from a re-analysis of the deposited data

Results flagged for a closer look

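PSME1 was the 1 member called between TIAR- and TIA1-expressing cells by a test of the difference itself. Its log2 fold change between these lines was 0.785 (adjusted p = 0.044 from limma). This was 2.22% of 45 members, beside 3.48% of 28068 probes called in either direction. The arrays of these lines lay in different rows of the slide, so line and row cannot be told apart. PSME1 was no longer called when any of these 4 arrays was left out, after normexp correction or with no filter on dim probes. Nor was it called in the fit of all 8 arrays or with the replicate block, while its value stayed between 0.77 and 0.94.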

How the results depend on the processing

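None of the 26 calls of a member changed sign under the 11 alternatives that kept its brightest probe. Over these alternatives, a call was kept in 165 instances and lost with the same direction in 121. By any probe, PSME4 was called in both directions in TIA1 versus HuR. PSME3, PSMB5 and PSMD14 in TIA1- versus HuR-expressing cells lost their call only without one or the other HuR array, with adjusted p up to 0.065, 0.067 and 0.064. Leaving out 1 array at a time gave 0 to 14 members called in TIA1 versus HuR (main value 15), 0 to 11 in TIAR versus HuR (10), 0 to 0 in TIAR versus TIA1 (1), 0 to 4 in TIA1 versus GFP (0), 0 to 5 in TIAR versus GFP (0) and 0 to 14 in HuR versus GFP (0). The counts of 0 against HuR came without HuR replicate 1 or 2. The counts above 0 against GFP came without GFP replicate 1 or 2. Many more of all probes were called there too. Whether the members gained more or fewer calls than other probes was not tested. Without GFP replicate 1 the median over the members was -0.28 for TIA1, -0.24 for TIAR and -0.06 for HuR versus GFP. Over all probes it was 0.04, 0.02 and -0.03. Without GFP replicate 2 the medians were 0.11, 0.13 and 0.26 over the members and -0.68, -0.64 and -0.77 over all probes. A line with 1 array was assumed to vary like the other line.

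With no filter on dim probes 3, 0 and 0 members were called in TIA1 versus HuR, TIAR versus HuR and TIAR versus TIA1. Of all probes 9.25%, 5.44% and 0% were. With all 8 arrays in one fit the counts were 7, 3 and 0, beside 18.6%, 12.2% and 1.57% of all probes. That fit called 7, 3 and 1 in TIA1, TIAR and HuR versus GFP, beside 18.9%, 11.7% and 6.8%. With normexp correction 0 were called in TIAR versus TIA1, beside 1.56%. The replicate block left 12 calls in TIA1 versus HuR, 5 in TIAR versus HuR and 0 in TIAR versus TIA1, beside 37.2%, 20.4% and 0%. The median of the members in the authors' values was 0.085 in TIAR versus HuR, 0.205 in TIAR versus TIA1 and -0.14 in HuR versus GFP. Other scalings changed the background too: the share of called probes that were higher in TIA1 versus HuR was 58.2% here, 66.7% after normexp, 51% after quantile normalization and 52.1% in the authors' values, and in TIAR versus HuR 59%, 67.2%, 50% and 50.8%. Quantile normalization moved the median of all probes from 0.01 to 0.24 in TIA1 versus GFP. Calling a gene by any of its probes gave 18 and 12 members against HuR. Such counts cannot be lower than those by the brightest probe, and none was made over all genes.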
